A study of Homo sapiens with 2 samples.

Results

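The ERBB2 amplicon is a stretch of 17q12 around the receptor tyrosine kinase gene ERBB2. It was examined here in a list of peaks from a chromatin immunoprecipitation of Flag-tagged Evi1Δ324. The stretch was taken as the 1 Mb of chromosome 17 from 34400001 to 35400000 (hg18), and a peak belonged to it when its midpoint lay there. Of the 6943 peaks in the list, 16 did. The core was taken as 35000001 to 35200000, round bounds around the place of ERBB2, which lies from about 35100000 to 35140000; it held 3 peaks and the rest of the window 13. The same length to either side held 3 peaks (33400001 to 34400000) and 6 peaks (35400001 to 36400000).

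The cells were SKOV-3, an established ovarian carcinoma line known to carry extra copies of ERBB2. All of them had been transfected with a plasmid for Flag-Evi1Δ324, driven by a CMV promoter per the plasmid's name in the labels, and were fixed 3 days later. Chromatin was precipitated with the Flag M2 antibody, giving 1 ChIP library; the 1 input library was not analysed here. The series has no replicate, so every interval below is a 95% interval for counting error within this library, and no p-value is given. Tags are reads counted without molecular identifiers, so PCR copies cannot be told from separate fragments.

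EVI1 is a transcription factor encoded by MECOM, known from blood stem cells and leukaemia, and its gene is also often gained in ovarian tumours. It binds DNA through separate zinc finger domains, of which the first is known for GATA-like sites. The name Evi1Δ324 is that of a shorter splice form known to lack part of this first domain. ERBB2 encodes a growth factor receptor that signals through partner receptors of its family. When the gene is amplified, its neighbours are commonly copied with it. Among these are GRB7, an adaptor protein that binds activated receptor kinases, STARD3, a cholesterol transfer protein of late endosomes, PPP1R1B, an inhibitor of protein phosphatase 1, NEUROD2, a neuronal transcription factor, and PLXDC1, a membrane protein first described in tumour vessels.

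In the RefSeq gene order (GRCh38.p14), all 21 genes of a list around ERBB2 were matched by symbol. From ERBB2 toward lower coordinates came PGAP3, PNMT, TCAP, STARD3, PPP1R1B and NEUROD2, then CDK12, a kinase acting on RNA polymerase II, and MED1, a Mediator subunit. PLXDC1 was farther out, with 13 protein-coding genes between it and ERBB2. Toward higher coordinates came MIEN1, GRB7 and the lymphoid transcription factor IKZF3. An hg18 annotation was not used here, so only ERBB2 has a place among the peaks. For the other members the peaks are given by their side of ERBB2, and no peak is assigned to GRB7, STARD3, PPP1R1B, NEUROD2 or PLXDC1.

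RefSeq promoter sequences were matched for 3 of the 6 genes, ERBB2, STARD3 and NEUROD2. The 250 bases before the start matched for ERBB2 (GRCh38.p14, chr17:39687844-39688093, plus strand) are printed because ERBB2 is the only member placed among the peaks. This start was not placed on hg18, so whether it lies at or near the ERBB2 peak was not tested. Whether it is the main start of ERBB2 was not tested either, and other starts, where they exist, were not searched. Motif matches would stand in capitals, and there were none.
ERBB2: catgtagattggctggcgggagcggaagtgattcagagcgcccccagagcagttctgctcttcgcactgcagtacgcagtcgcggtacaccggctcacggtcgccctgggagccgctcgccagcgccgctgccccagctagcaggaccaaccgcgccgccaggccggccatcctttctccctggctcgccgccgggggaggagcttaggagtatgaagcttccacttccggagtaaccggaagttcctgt
Motifs known for EVI1 were searched on both strands in windows from 250 bases before to 50 after each start. GATAAG was in 6.36% of all 35116 promoters, GACAAGATA, a longer GATA-like site whose end can overlap GATAAG, in 0.0968%, and GAAGATGAG, a site of the second domain, in 0.347%. In the 3 promoters of ERBB2, STARD3 and NEUROD2 the number of matches was 0 for each motif. That says only that these letters were not in these windows, and nothing about other starts of the 3 genes.

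The file gives each peak a position, a ratio and a number of tags. The ratio was read as a fold of the peak over a background that the file does not define; it is the authors' own value. No peak in the list has fewer than 5 tags, so weaker places are not seen at all, and a peak's tags are those of a place that passed this minimum.

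The 3 core peaks had 15 to 32 tags, among them the window's deepest peak, and low deposited ratios. The peak inside the ERBB2 interval ran from 35109512 to 35109906, about 9.71 kb in from the low end of that interval, with a width of 395 bp. It had 32 tags (exact Poisson interval 21.9 to 45.2), or 81.0 tags per kb of peak, the most in the window on both scales. Its deposited ratio was 5.99, and 1.02% of the list had a lower one.

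The other core peaks lay on the side of PGAP3, STARD3, PPP1R1B and NEUROD2. One ran from 35031851 to 35032191 (341 bp), 68 kb below the ERBB2 interval, with 20 tags (interval 12.2 to 30.9), 58.7 tags per kb and a ratio of 5.18. The other ran from 35029524 to 35029797 (274 bp), with 15 tags (interval 8.40 to 24.7), 54.7 tags per kb and a ratio of 7.99. They were 2053 bp apart. In the core above ERBB2, the side of MIEN1 and GRB7, there was no peak, and the next one upward of the ERBB2 peak was 229 kb away.

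Those 3 peaks held 67 of the 177 tags in the window's peaks (37.9%) on 20% of its length. The 20% follows from the chosen bounds. A core with wider bounds held the same 3 peaks and tags on more of the length, so no concentration of tags is read from these shares. All 3 were among the window's 4 peaks with the most tags. By number of peaks the core did not stand out. It had 3 in 0.2 Mb against 13 in the other 0.8 Mb, a density ratio of 0.923 (exact interval 0.169 to 3.36). Widened to both sides, with the same 3 peaks, the core gave a ratio of 0.346 (0.0633 to 1.26). Widened only toward higher coordinates, again with these 3, it gave 0.538 (0.0984 to 1.96). The ERBB2 interval alone, with 1 peak, gave 1.6 (0.038 to 10.4). A difference in either direction was thus not detectable at this number of peaks.

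Below the core, toward lower coordinates, 12 peaks lay in 0.6 Mb, in a few groups. The densest group was 4 peaks within 1030 bp, 536 to 537 kb below ERBB2, together holding 46 tags (interval 33.7 to 61.4). Its first peak, 34563273 to 34563549 (277 bp), had 16 tags, 57.8 tags per kb and a ratio of 25.06, the highest ratio in the window. Next came a peak of 103 bp from 34563613 to 34563715, with 6 tags, 58.3 tags per kb and a ratio of 20.88. The next, from 34563728 to 34563961 (234 bp), had 11 tags and 47.0 tags per kb, with a ratio of 13.84. Gaps of only 63, 12 and 121 bp separated the peaks of this group. The last, from 34564083 to 34564302 (220 bp), had 13 tags, 59.1 tags per kb and a ratio of 6.69, the lowest outside the core. The ratio thus fell from 25.06 to 6.69 across about 1 kb while the tags per kb stayed between 47.0 and 59.1. Joining peaks at most 1 kb apart left 6512 regions in the list, and 35 of them (0.537%) held 4 or more peaks. In the RefSeq order tRNA genes, TRC-GCA2-3 and TRC-GCA2-4, stand next to PLXDC1, and whether this group lies on them was not tested, since neither was placed on hg18.

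A second group lay 227 to 229 kb below ERBB2. It consisted of peaks from 34871104 to 34871267 (164 bp, 7 tags, 42.7 tags per kb), from 34871916 to 34872104 (189 bp, 10 tags, 52.9 tags per kb) and from 34873106 to 34873235 (130 bp, 6 tags, 46.2 tags per kb). Their ratios were 11.4, 13.46 and 15.14. A narrow peak of 74 bp, from 34860465 to 34860538, stood 10.6 kb before them with 5 tags. Being so narrow, it had 67.6 tags per kb, second only to the ERBB2 peak, although no peak can have fewer tags.

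The remaining peaks of the window stood alone. The peaks from 34427316 to 34427489 (174 bp, 7 tags, 40.2 tags per kb) and from 34469994 to 34470126 (133 bp, 6 tags, 45.1 tags per kb) were the farthest from ERBB2, at 673 and 630 kb. The peaks from 34589571 to 34589701 (131 bp, 6 tags, 45.8 tags per kb) and from 34639290 to 34639396 (107 bp, 5 tags, 46.7 tags per kb) followed the densest group. All 4 had tag counts near the list's minimum. Above the core there was a single peak, from 35339390 to 35339634 (245 bp), 200 kb beyond ERBB2, with 12 tags, 49.0 tags per kb and a ratio of 11.67.

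**Figure D1:**
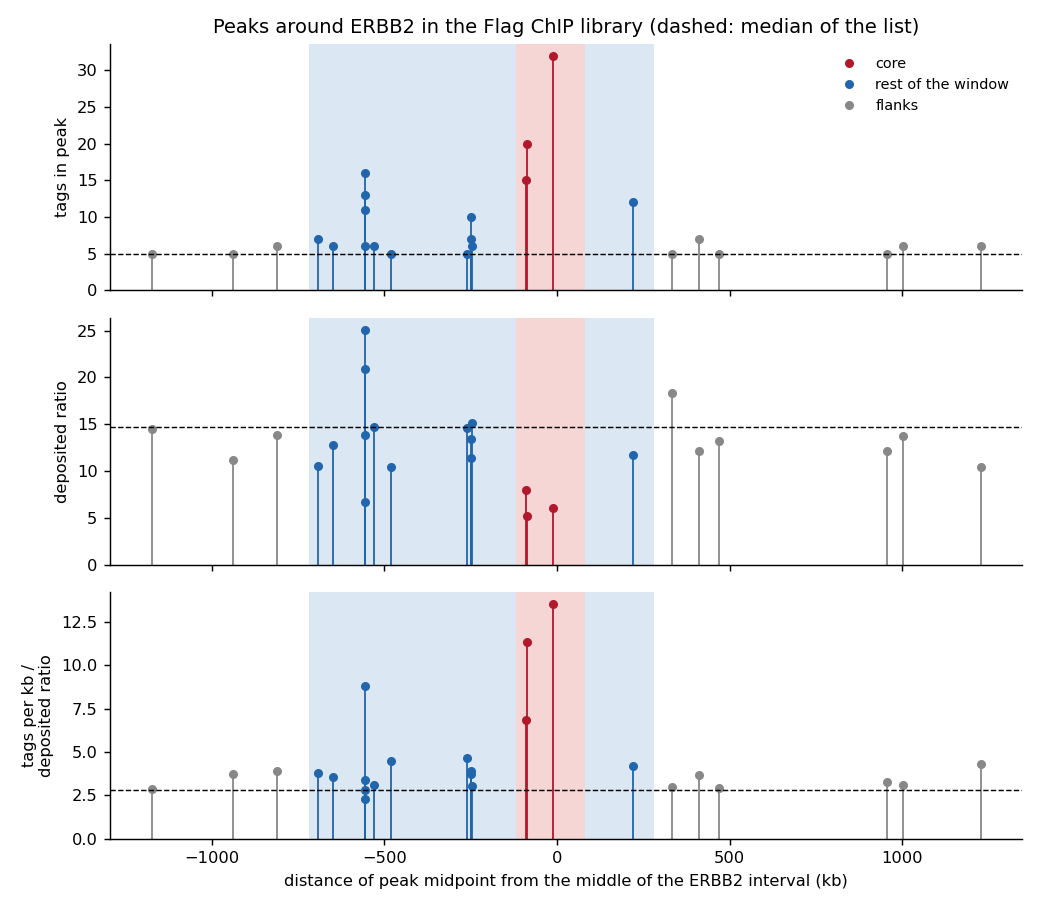
Each stem is 1 peak, placed by the distance of its midpoint from the middle of the ERBB2 interval (kb), with its tags (top), its deposited ratio (middle) and its tags per kb divided by that ratio (bottom); red is the core, blue the rest of the window, grey the flanks, and the dashed line is the median of the 6943 peaks. The 3 core peaks have 15 to 32 tags and ratios of 5.18 to 7.99, and the 9 flank peaks have 5 to 7 tags.

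Against the 1 Mb to either side, the window had more peaks, but this depended on the bounds. The lower flank had 3 peaks in 0.9 Mb of placed sequence, since an assembly gap takes 100 kb of it, and the upper flank 6 in 1 Mb. The window's 16 gave a density ratio of 4.80 against the lower flank (exact interval 1.37 to 25.7) and 2.67 against the upper (0.991 to 8.32). Against both together the ratio was 3.38 (1.41 to 8.67). Of these 3 comparisons, only that with the upper flank had an interval that included 1. With peaks at most 1 kb apart joined, the window kept 12 regions, and the ratio to both flanks was 2.53 with an interval that reached below 1 (0.980 to 6.81). With 10 kb it was 2.11 (0.771 to 5.87). Against the lower flank alone the interval also came to include 1, at 3.60 (0.972 to 19.9) with 1 kb and 3.00 (0.772 to 17) with 10 kb. A window of 0.5 Mb was also taken, about the centre of the 1 Mb window and not about ERBB2, which lies above that centre. With flanks of that length it had 7 peaks against 14, a ratio of 1 (0.342 to 2.65). Against its lower flank, with 10 peaks, it was at 0.7 (0.226 to 2.04).

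The flank peaks were all shallow. The 3 of the lower flank had 5, 5 and 6 tags, and the 6 of the upper flank had 5, 7, 5, 5, 6 and 6. In the window 8 of 16 peaks had at least 8 tags (50%, exact Clopper-Pearson interval 24.7 to 75.3), where 14.1% of the list did. Chromosome 17 as a whole had more such peaks than the list, 64 of 299 (21.4%), so that the window was at 2.34 times its chromosome against 3.54 times the list. Of the 9 flank peaks, 0 had as many, which allows up to 33.6% by the same interval. The exact interval of the density ratio, 8 such peaks in 1 Mb against 0 in 1.9 Mb, began at 3.24 and had no upper bound. The core gave 3 of these 8 peaks, the densest group 3, the second group 1, and the peak above the core 1. After joining within 1 kb, 6 of 12 regions had at least 8 tags (interval 21.1 to 78.9%), against 13.6% of the joined list.

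At a minimum of 20 tags only 2 peaks of the window were left, both in the core (12.5% of 16, interval 1.55 to 38.3), against 3.01% of the list. These were the ERBB2 peak and its neighbour at 35031851. Tags per kb separated the regions less than tags did. The median was 58.7 in the core, 47.0 in the rest of the window, 42.6 in the flanks and 44.6 in the list. By the summed tags and widths of all peaks the order against the list was the other way: 74.8 tags per kb in the list, whose deepest peak has 5144 tags, and 55.5 in the window, a ratio of 0.741 to the other peaks of the list (interval 0.636 to 0.859), with the core at 0.887 (0.687 to 1.13). Within the region, the core had 66.3 tags per kb and the rest of the window 50.4, a ratio of 1.32 (interval 0.956 to 1.80). Against the flanks' 44.3 tags per kb the core was at 1.50 (1.02 to 2.20). The intervals of these tag ratios treat tags as independent and leave out differences between peaks. The core had only 3 peaks and the flanks 9. Of the window's peaks, 2 were above the 90th percentile of the list in tags per kb, which is 60.3. They were the ERBB2 peak and the 74 bp peak with the fewest possible tags, and this share of 12.5% was near the 10.0% of the list.

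Compared with the rest of 17q12, the last 1 Mb of the band took 16 of its 34 peaks. The other 18 lay in 5.4 Mb of placed sequence, a density ratio of 4.80 (exact interval 2.29 to 9.97). Against the whole remainder of chromosome 17, with 283 peaks in 76.8 Mb, it was 4.34 (2.45 to 7.18). Of the 18, 3 had at least 8 tags. When chromosomes 1 to 22 and X were cut into 2773 bins of 1 Mb in step with the window, the median bin held 2 peaks. Only 2 bins, in 12q24.31 and 11q13.1, held more than the window, with 19 and 18, and 3 others held 16. The window also had the most peaks of the 76 bins of chromosome 17. With peaks joined within 1 kb, 1 bin of the genome exceeded the window and 0 tied with it. With 10 kb, 1 bin exceeded it and 3 tied, 1 of these on chromosome 17. By tags in peaks, 14 bins were above the window's 177, 1 of them on chromosome 17 with 309. The stretch was proposed for study with results of this list known, so its rank is a description.

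**Figure D2:**
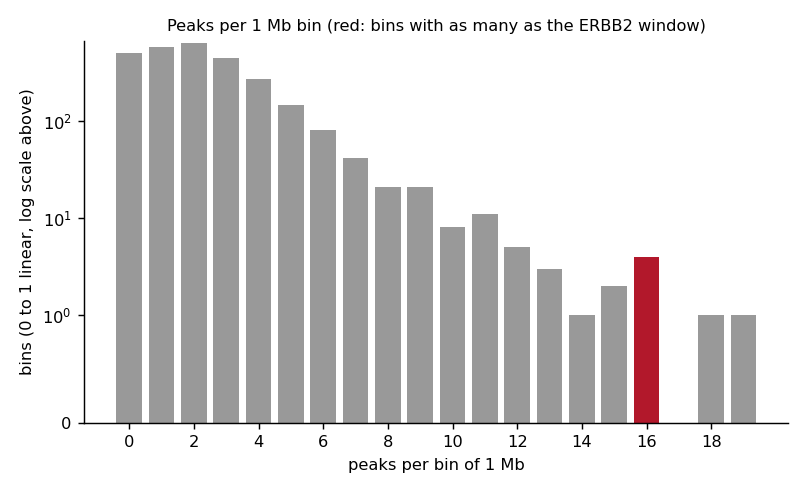
Number of bins of 1 Mb (vertical axis, linear from 0 to 1 and logarithmic above) with each number of peaks (horizontal axis), over 2773 bins of chromosomes 1 to 22 and X. The red bar is the 4 bins with 16 peaks, the ERBB2 window among them; the median bin held 2 peaks, and 2 bins held more than 16.

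The deposited ratios were low in the core. All 3 core ratios were below every other ratio in the window and its flanks except 1, the 6.69 of the densest group, which lay between them. The rest of the window had a median ratio of 13.5 (range 6.69 to 25.1), the flanks 13.2 (10.4 to 18.3) and the list 14.7. Ratios below the list median were found for 13 of the window's 16 peaks and 8 of the 9 flank peaks. The list itself had 2603 of 6943 below its median, since peaks at the median do not count. Chromosome 17 outside the window had 131 of 283. The core was also set beside the 181 other peaks of the list with 15 to 32 tags, the range of the core, without matching the tags within it. Their median ratio was 19.0 (quartiles 11.0 and 28.3, range 3.94 to 72.7), and 23 of them (12.7%) were at or below 7.99. All 3 core ratios were thus below the lower quartile of these peaks. Their quartiles were 267 and 380 bp in width and 54.2 and 72.1 in tags per kb. The core peaks at 35029524 and 35031851 lay between the quartiles on both scales, and the ERBB2 peak was above the upper one on both.

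**Figure D3:**
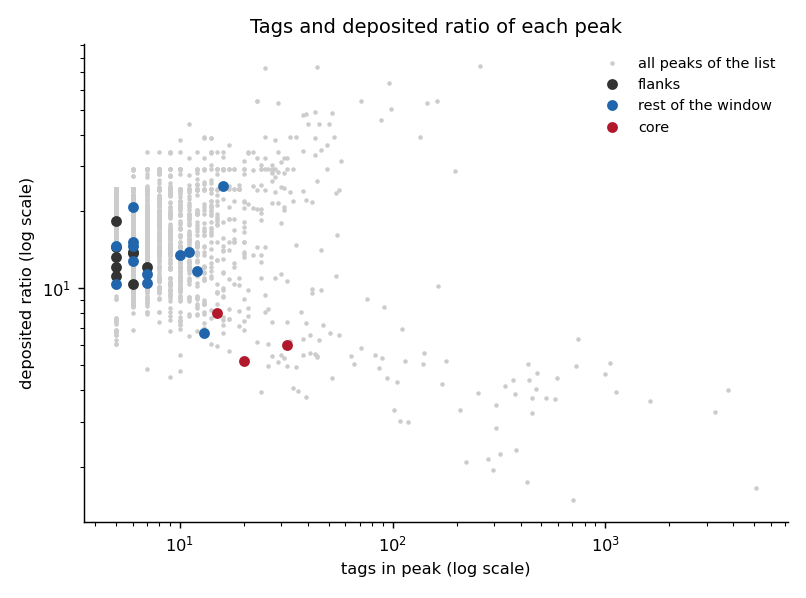
Deposited ratio against tags for each peak, both on log scales; pale points are the 6943 peaks of the list, black the flanks, blue the rest of the window and red the core. The 3 core peaks, at 15 to 32 tags, have ratios of 5.18 to 7.99, below the median ratio of 19.0 of the other peaks in that range of tags.

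Tags per kb divided by the deposited ratio gives an index of the background against which a peak was scored, provided the ratio is a fold over background. This index was 13.5 at the ERBB2 peak, 11.3 at 35031851 and 6.85 at 35029524, against a median of 2.81 in the list. The 181 other peaks with 15 to 32 tags had a median index of 3.25, and 29 of them (16%) were at or above 6.85. The median index was 3.74 in the rest of the window and 3.25 in the flanks. Above the 90th percentile of the list, 4.14, were 7 of the window's 16 peaks (43.8%, exact interval 19.8 to 70.1) and 1 of the 9 flank peaks, against 10.0% of the list. On chromosome 17 outside the window 39 of 283 peaks (13.8%) were above it. The 7 were the 3 core peaks, the 6.69-ratio peak of the densest group (8.83), the peaks at 34860465 (4.63) and 34639290 (4.50) and the single peak above the core (4.20). The other peaks of the densest group, within the same 1030 bp, had an index of 2.3, 2.79 and 3.4, so the index differed widely over a short distance. Spearman's rho with the distance from ERBB2 was taken over the window's 16 peaks and over the 25 peaks of window and flanks. For the index it was -0.606 and -0.420, for tags -0.396 and -0.475, and for the deposited ratio 0.462 and 0.217. The index is made from tags and ratio, so the 3 measures are not independent. Neighbouring peaks share their surroundings, so all these values are descriptions. Extra copies of a stretch would add tags to ChIP and background alike. Copy number was not measured here, and its part in the number of peaks, their tags or their ratios was not tested.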

How the data were processed

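The authors deposited 1 headerless peak list, for the ChIP library, with a ratio and a tag count per peak. Both readings come from the values: the ratio as a fold over an undefined background, the count as unscaled tags. Coordinates are on hg18, a build named in the submitters' processing notes. Which aligner and caller were used, and at what threshold, is not given in the sources used here. In all, 76115 tags lie in the listed peaks, and sequencing depth is unknown.

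Peaks were placed by midpoint and positions are printed from 1. Placed lengths and bands of hg18 came from IRanges 2.36.0 and circlize 0.4.16 under R 4.3.3; computations used Python 3.11.15, numpy 2.4.6, pandas 2.3.3 and scipy 1.17.1. Density ratios have exact intervals from the Clopper-Pearson interval of the share of the first count, tested on simulated data. Bins needed 90% placed sequence. Joined peaks had their tags summed. Members and lists were chosen with earlier results of these data known. Peaks named in full were to be those of the core and the 5 highest by tags and by tags per kb; the others were added so that all 16 are given. The index and the peaks of equal tags were added after seeing the data.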

Additional observations from a re-analysis of the deposited data

How the results depend on the processing

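Of 34 values recomputed under an alternative, 28 stayed within the reported interval. Those intervals are wide, so this count says little about robustness. With peaks joined within 10 kb, the window's ratio to both flanks counted as within at 2.11, although its own interval (0.771 to 5.87) came to include 1. A window of 0.5 Mb about the centre of the 1 Mb window, not about ERBB2, moved the ratio to both flanks to 1. It turned the ratio to the lower flank to 0.7, since that flank then holds 10 peaks, the densest group among them. Among peaks with a deposited ratio above the list's median or 90th percentile, the core had 0 peaks and so a density ratio of 0. The core's summed tags per kb against the rest of the window moved to 1.82 with peaks at most 1 kb apart joined, because the joined span includes gaps. The share of deep peaks against the list moved from 3.54 to 5.50 times at a minimum of 10 tags. Another 11 settings gave no ratio, because the second region held 0 peaks. No paired analysis was possible because the series has 1 ChIP library. Few tags per peak and few peaks per region limit every comparison.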

Other observations

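Peaks resembling those of the core were rare in the list as a whole. With at least 15 tags and a ratio of at most 7.99, limits taken from the core peaks after their values were seen, there were 93 peaks (1.34% of 6943), or 31.2% of the 298 peaks with at least 15 tags. Of the 90 outside the core, 51 lay in heterochromatic bands or near a centromere and 8 in 3q26.2, the band of MECOM. Another 7 were on sequences other than chromosomes 1 to 22 and X, and 24 were elsewhere. Of those 24, 4 were in 1p36.32 and the others in 17 bands. Chromosome 17 held 1 of the 90, also in 17q12, from 30502218 to 30502496, with 102 tags, a ratio of 3.34 and an index of 109.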
